A study of Danio rerio with 18 samples.

Results

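Unfertilized eggs and 32-cell embryos of zebrafish were compared for ribose methylation of their rRNA. The comparison used the 3 RiboMeth-seq libraries of unfertilized egg and the 3 of 32-cell embryo, which are 6 of the 14 RiboMeth-seq libraries and of 18 samples in all. It covered all 98 sites that the authors list, with 35 of them in the small-subunit 18S rRNA and, in the large subunit, 60 in 28S and 3 in 5.8S rRNA. By base, 29 are A, 19 C, 28 G and 22 U. Both groups were whole-cell RNA with no treatment or mutant allele named in the labels, and the study's design text calls the libraries of each stage biological triplicates. The labels name no strain, no clutch and no number of eggs or embryos behind a library. Fertilization and the first cleavages both lie between the groups, and their parts cannot be told apart.

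A 2'-O-methyl group is placed on the ribose of an rRNA nucleotide by the enzyme fibrillarin, which is guided to its target by base pairing of a box C/D snoRNA, mostly while the rRNA is being made. The zebrafish egg is stocked with ribosomes built on an early, maternal type of rRNA, and a late, somatic type takes over during development. The embryo at the cleavage stages still lives on the maternal ribosomes, because its own genome is largely silent, so largely the same stock of rRNA is looked at before and after fertilization. Reads of both groups were mapped to the early rRNA, per the file headers.

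RiboMeth-seq breaks RNA with alkali, which attacks the bond next to a free 2'-hydroxyl. A methylated nucleotide is spared, so few fragments begin or end there. The deposited score is 1 minus the read ends at a position relative to the weighted mean over 6 positions on each side, limited at 0. On this scale 1 stands for full methylation and 0 for none, but positions the authors do not list also score above 0, as given below. Each score is an average over the rRNA molecules of a library. Sites carry the authors' names, in which the letter is the base and the number follows human rRNA. Positions are counted from 1 in the early rRNA.

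The stretches of early rRNA around the sites that the comparison turns on are shown 5' to 3', as given in the deposited sheets. Capitals mark listed sites and lower case the other bases.
28S positions 3177 to 3212 (28S-Um3904, 28S-Cm3916, 28S-Gm3923): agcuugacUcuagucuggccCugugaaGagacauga
28S positions 3848 to 3872 (28S-Am4560): guugcaauaguaAucccgcucagua
28S positions 3558 to 3582 (28S-Um4272, 28S-Um4276): ugaucuugauuuUcagUaugaguac
5.8S positions 1 to 21 (5.8S-Um8, 5.8S-Um14): caacucuUagcggUggaucac
18S positions 384 to 408 (18S-Cm346, 18S-Um354): gguucauuCgaaugucUgcccuauc
18S positions 470 to 494 (18S-Um428, 18S-Gm436): cgauUccggagaGggagccugagaa
18S positions 496 to 520 (18S-Cm462, 18S-Am468): cggcuaccacauCcaaggAaggcag
18S positions 1327 to 1351 (18S-Cm1272): accucacccggcCcggacacggaaa

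The methylation pattern of the egg was largely found again at the 32-cell stage. The means of the groups lay within 0.05 of each other at 74 of 98 sites and within 0.1 at 88. In limma, a linear model with moderated variances fitted to all 14 libraries, 0 of 98 sites (0%) passed an adjusted p of 0.05. At an unadjusted p under 0.05 there were 5 sites, 1 higher (1.02%) and 4 lower (4.08%) at 32-cell. The 95% confidence interval of the difference lay inside 0.1 on either side of 0 at 57 sites, so for the other 41 a difference of that size was not bounded by these libraries.

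The libraries held 15358081, 13359005 and 7948776 read ends in egg and 10864199, 11081515 and 12167835 at 32-cell. Around each site the flanking positions held a mean of 346.2 read ends or more in each of these 6 libraries. The median score over the 98 sites was 0.963, 0.941 and 0.939 in the egg libraries and 0.940, 0.942 and 0.940 in the 32-cell libraries, and these ranges overlapped. File headers give the library barcodes: egg library 1 shares one with 32-cell library 2, and egg library 2 shares one with 32-cell library 3. Across sites, the libraries that share a barcode deviated from their stage means together, with correlations of 0.568 and 0.443 over 98 sites. In scores from 3' read ends alone the same correlations were 0.632 and 0.579, and in scores from 5' read ends alone 0.0466 and -0.0417. Pairs with no shared barcode ranged from -0.481 to 0.289 in the deposited score and from -0.287 to 0.291 from 5' ends. Deviations sum to 0 within each stage, so these correlations are not independent of one another. Because of the correlations within barcodes, values from 5' ends are set beside the deposited ones. For the sites with the largest differences, so are those between libraries of one barcode.

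**Figure D1:**
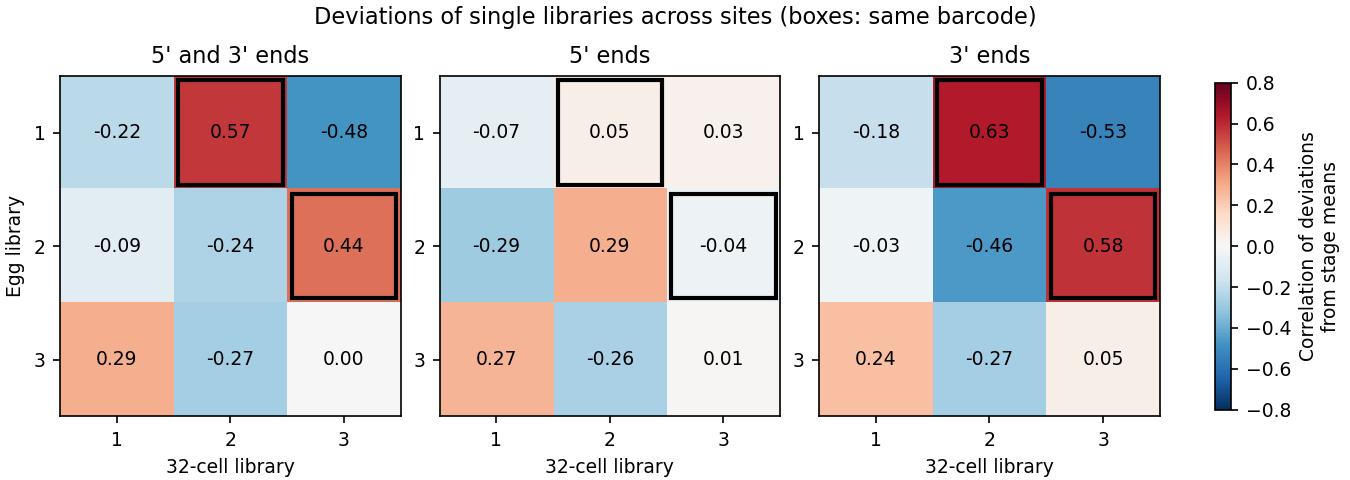
Correlation, across sites, of the deviations of each egg library (vertical) and each 32-cell library (horizontal) from their stage means, in scores from both kinds of read ends, from 5' ends and from 3' ends, with libraries of the same barcode boxed. The boxed pairs read 0.57 and 0.44 in the deposited score and 0.05 and -0.04 in the score from 5' ends.

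By RNA, the differences were spread over both large rRNAs. Means were 0.1 or more apart at 10 sites (10.2%), 4 higher (4.08%) and 6 lower (6.12%) at 32-cell. In 18S rRNA, which carries the decoding centre of the small subunit, 1 site was higher by that much and 3 were lower, out of 35. In 28S rRNA, which holds the peptidyl transferase centre of the large subunit, 2 were higher and 3 lower, out of 60. In 5.8S rRNA, which pairs with 28S rRNA, 1 of 3 was higher. The median difference, 32-cell minus egg, was -0.00673 in 18S and -0.00601 in 28S, against -0.00605 over all 98 sites.

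By base, cytidines had the widest differences. Among the 19 C sites, 2 were higher and 2 lower by at least 0.1. The counts were 1 and 1 among 29 A, 0 and 1 among 28 G, and 1 and 2 among 22 U. The median size of the difference was 0.0358 at C, 0.0249 at U, 0.0189 at G and 0.0147 at A. Within 28S rRNA it was wider at the 8 U sites (0.0408) than at the 14 C sites (0.0261). At the 5 C sites of 18S rRNA it was 0.207. The median SD between libraries was also largest at C, at 0.0501 in egg and 0.0379 at 32-cell against 0.0254 and 0.0256 over all sites. The other bases did not keep the same order, as U had 0.0254 in egg and 0.0169 at 32-cell. In scores from 5' ends the median size of the difference at C was 0.00663, against 0.01004 over all sites. The typical cytidine difference was thus smaller from 5' ends, although the largest 5' difference of any base, 0.383 at 28S-Cm3916, was also at a C.

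**Figure D2:**
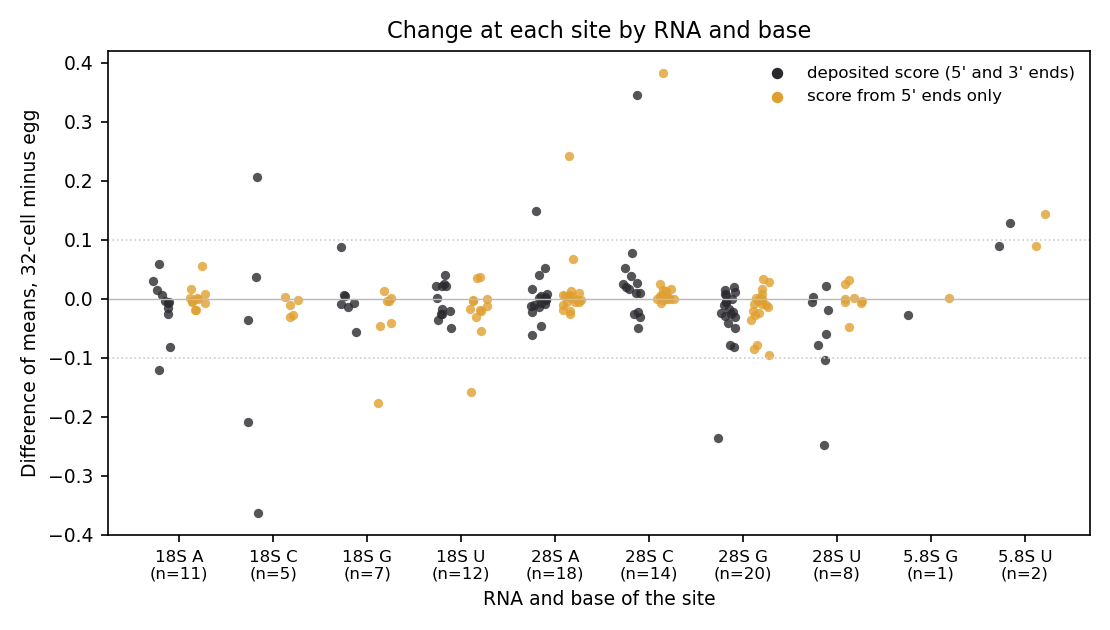
Difference of stage means, 32-cell minus egg, at each of the 98 sites, grouped by RNA and base on the horizontal axis, in the deposited score and in the score from 5' ends only, with dotted lines at 0.1 and -0.1. Outside the lines lie 10 sites in the deposited score and 5 in the score from 5' ends.

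Counting 5' read ends alone narrowed the comparison. In that score 86 sites lay within 0.05 and 93 within 0.1, and 5 sites (5.1%) differed by at least 0.1, 3 higher (3.06%) and 2 lower (2.04%) at 32-cell. Limma again passed none of the 98 (0%), and an unadjusted p under 0.05 was reached by 3 higher (3.06%) and 5 lower (5.1%). Of the 10 sites that differed by at least 0.1 in the deposited score, 3 did so in the same direction from 5' ends: 28S-Cm3916, 28S-Am4560 and 5.8S-Um14, all higher at 32-cell. The other 7, among them all 6 that were lower, differed by less than 0.05 from 5' ends. The 5' ends are part of the deposited sum at every site, so no 5' score is independent of the deposited one. This holds most at 5.8S-Um14, where almost all read ends are 5' ends, so its 5' score is not a separate check at all. Past 0.1 from 5' ends but not in the deposited score were 18S-Um354 and 18S-Gm436, both lower at 32-cell. From 3' ends alone, which gave a score at 96 sites, limma called 0 (0%), with 1 lower site (1.04%) at an unadjusted p under 0.05, and 11 sites (11.5%) differed by at least 0.1, 3 higher (3.12%) and 8 lower (8.33%).

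**Figure D3:**
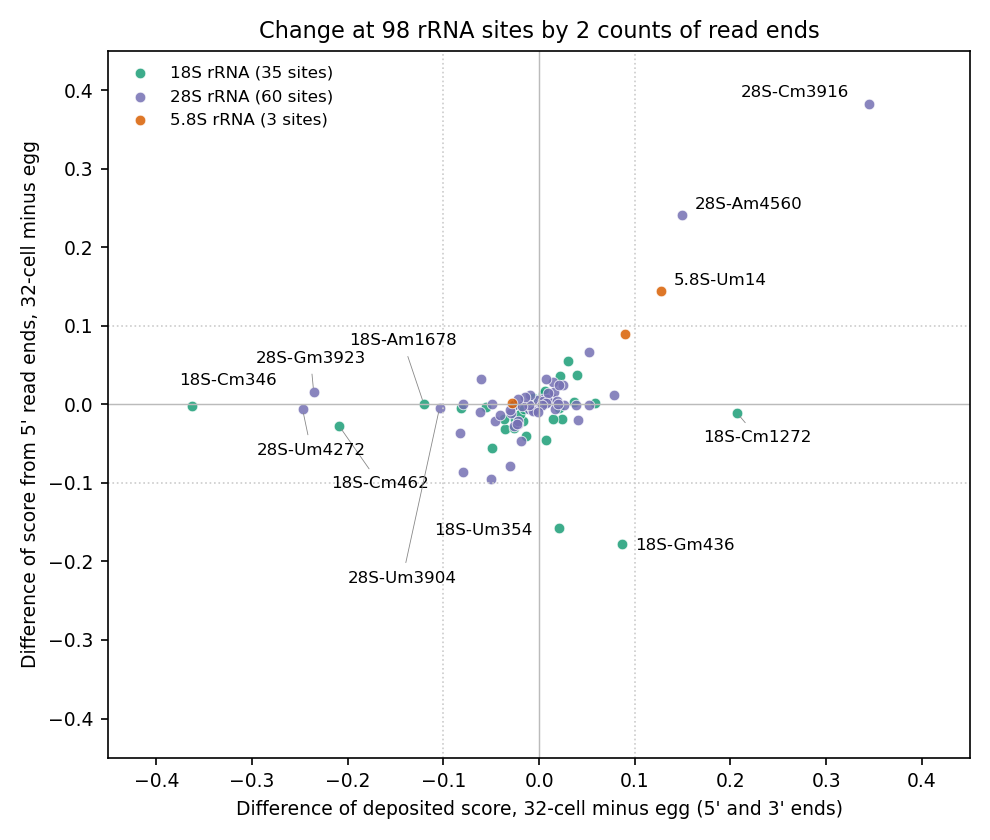
Difference of stage means, 32-cell minus egg, at the 98 sites in the deposited score (horizontal) against the score from 5' ends only (vertical), coloured by RNA, with dotted lines at 0.1 and -0.1. Only 28S-Cm3916, 28S-Am4560 and 5.8S-Um14 lie past 0.1 on both axes, and the 6 sites past -0.1 on the horizontal axis lie near 0 on the vertical one.

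28S-Cm3916, at position 3197, had the largest positive difference of all 98 sites in both scores. Its deposited scores were 0, 0.0579 and 0 in the egg libraries and 0.226, 0.522 and 0.346 at 32-cell. Its scores from 5' ends were 0, 0 and 0 in egg and 0.403, 0.555 and 0.190 at 32-cell. In both of these scores, every 32-cell library stood above every egg library, and the stage mean went from weak in egg to partial at 32-cell. From 3' ends alone the groups overlapped. The 3' ends at the site, divided by the mean of the 12 flanking positions, came to 0.742, 0.756 and 0.718 in egg. At 32-cell they came to 0.808, 0.459 and 0.592, so 32-cell library 1 was the least depleted and egg was not without depletion. The means were 0.0193 ± 0.0335 (SD, n = 3) and 0.364 ± 0.149 (n = 3), a difference of 0.3452 (95% confidence interval 0.103 to 0.588, limma adjusted p = 0.432). From 5' ends the difference was 0.383 (0.147 to 0.619, limma adjusted p = 0.296). Within the shared barcodes it was 0.522 and 0.288 in the deposited score and 0.555 and 0.190 from 5' ends. Leaving out the third 12-somite library, in which 10.4% of read ends fell on 10 positions, gave a limma adjusted p of 0.0395 for the same difference. Limma also called the site on the logit scale, but there the egg scores of 0 were set to 0.01, so the size of the difference and its p rest on that floor. Over the other alternatives the adjusted p ranged from 0.0395 to 0.988, the lowest being that without the 12-somite library, which enters through the shared estimate of the spread.

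The read ends around the site were looked at after the scores were seen. In both groups the site stood out less from its closest neighbours than the median listed site did. At the site itself there were 3216, 2409 and 2909 read ends in egg and 1404, 723 and 937 at 32-cell. Of these, 1979, 1430 and 2310 in egg and 214, 110 and 186 at 32-cell were 5' ends. The deposited count at the site thus came mostly from 5' ends in egg and mostly from 3' ends at 32-cell. Divided by the mean of the 2 adjacent positions, both kinds of ends together came to 0.869, 0.904 and 0.926 in egg and 0.948, 0.641 and 0.857 at 32-cell. These ranges overlapped, with the lowest value in 32-cell library 2, and the median of the same ratio over the 98 sites was 0.0635 in egg and 0.0812 at 32-cell. From 5' ends alone the ratio was 0.922, 0.830 and 0.916 in egg and 0.583, 0.701 and 0.680 at 32-cell, which did not overlap. With 2 flanking positions on each side in place of 6, the scores were 0, 0 and 0 in egg and 0.0791, 0.396 and 0.0550 at 32-cell. The difference was then 0.177 (limma adjusted p = 0.729). Among 5' ends, the mean over the 6 upstream positions divided by that over the 6 downstream ones was 1.34, 2.25 and 0.720 in egg and 2.35, 6.51 and 7.48 at 32-cell. By the stage mean of that ratio, 28S-Cm3916 was among the 3 with the highest ratio of the 98 sites at 32-cell, while in egg 37 sites, itself included, had one at least as high. Among both kinds of ends together, which make up the deposited score, the ratio was 1.14, 1.34 and 0.733 in egg and 0.786, 2.00 and 0.866 at 32-cell, and 47 sites in egg and 40 at 32-cell had a stage mean at least as high. Among 5' ends all 32-cell libraries thus stood above all egg libraries in this ratio, while in both kinds of ends together the groups overlapped. Among 3' ends, 64 sites in egg and 57 at 32-cell had a stage mean at least as high. Single 32-cell libraries were uneven in 3' ends too, in different directions. They stood at 1.01, 2.05 and 1.28 of the flanking mean 5 nt upstream, and at 2.08, 0.717 and 1.59 at 3 nt downstream. In egg these were 1.53, 1.53 and 1.25, and 1.09, 1.40 and 1.03. The part of uneven flanks in either difference was not tested.

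**Figure D4:**
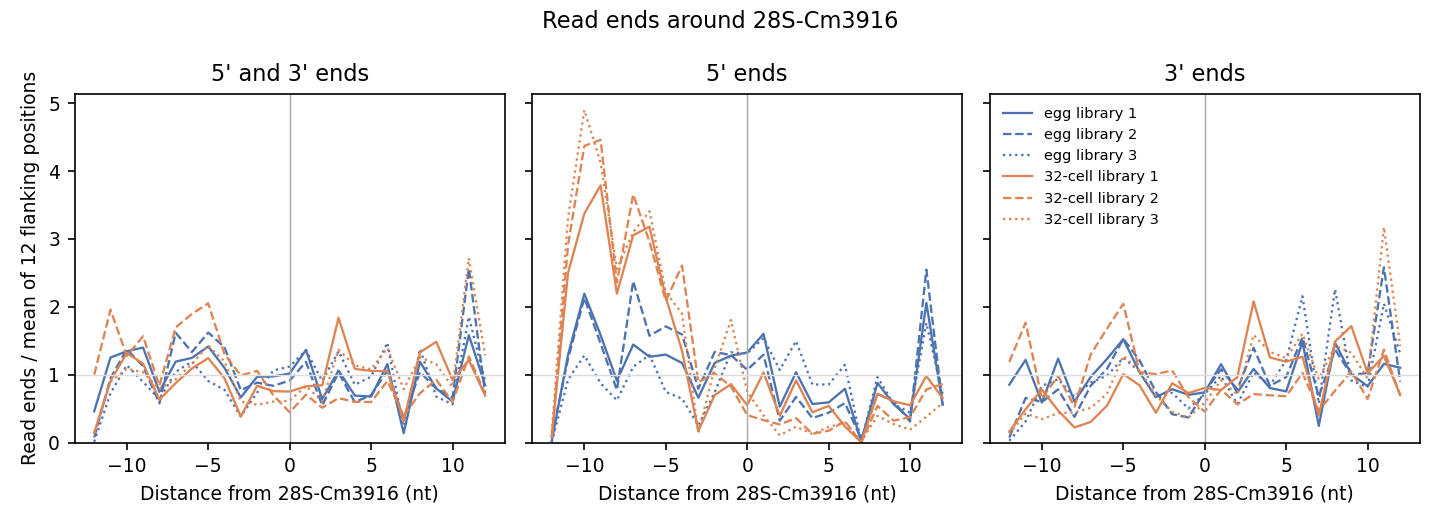
Read ends at each position within 12 nt of 28S-Cm3916 (horizontal), divided by the mean of the 12 flanking positions (vertical), in each of the 6 libraries, from both kinds of ends, 5' ends and 3' ends. In the middle panel the 32-cell libraries stand above the egg libraries in most of the upstream part of the window. They mix with them just before the site and lie below them at the site and at the next position downstream. The drop towards 0 at 7 nt downstream is 28S-Gm3923.

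28S-Am4560, at position 3860, was the other site read as weak in egg. Its deposited scores were 0.0906, 0.351 and 0.293 in egg and 0.743, 0 and 0.439 at 32-cell. The 32-cell libraries thus enclosed the egg libraries, and the difference of 0.149 had a confidence interval from -0.260 to 0.558 (limma adjusted p = 0.816). From 5' ends its scores were 0.541, 0.756 and 0.594 in egg and 0.915, 0.842 and 0.857 at 32-cell. There the groups did not overlap, and the difference was 0.241 (0.0618 to 0.420, limma adjusted p = 0.401). Here too the flanks were uneven, the upstream over downstream ratio of 5' ends being 3.30, 4.09 and 1.61 in egg and 15.96, 12.3 and 24.8 at 32-cell. The 5' ends at the site over its 2 adjacent positions were 0.792, 0.472 and 0.724 in egg and 0.368, 0.596 and 0.462 at 32-cell, which overlapped. Without 32-cell library 1 the deposited difference was -0.0252.

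In 5.8S rRNA, 5.8S-Um14, long known in mammals as a site methylated in part, had a higher mean at 32-cell. Its deposited scores were 0.727, 0.674 and 0.537 in egg and 0.734, 0.817 and 0.770 at 32-cell, so that the groups did not overlap, by a narrow margin. The difference was 0.128 (-0.0520 to 0.308, limma adjusted p = 0.603), and 0.144 from 5' ends. Without egg library 3 it was 0.0733. Almost all read ends here are 5' ends, as the site lies near the start of the RNA. 5.8S-Um8 had scores of 0.830, 0.617 and 0.880 in egg and 0.861, 0.877 and 0.859 at 32-cell, overlapping, with a difference of 0.0898, and of 0.0105 without egg library 2. Its score from 5' ends was the same to the digits given. 5.8S-Gm75 had scores of 0.962, 0.946 and 0.908 in egg and 0.926, 0.873 and 0.934 at 32-cell, a difference of -0.0278, and of 0.00172 from 5' ends. For 5.8S rRNA, 0 of 3 confidence intervals lay inside 0.1 on either side of 0.

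All 6 sites that were lower by at least 0.1 at 32-cell read as fully methylated in both groups from 5' ends, with no library below 0.913. 18S-Cm346, at position 392, had the largest negative difference. Its deposited scores were 0.893, 0.793 and 0.844 in egg and 0.713, 0.476 and 0.251 at 32-cell, with no overlap. The means were 0.843 ± 0.0501 (SD, n = 3) and 0.480 ± 0.231 (n = 3), a difference of -0.363 (-0.599 to -0.128, limma adjusted p = 0.432). From 5' ends the scores were 0.974, 0.935 and 0.9899 in egg and 0.958, 0.974 and 0.960 at 32-cell, which overlapped, with a difference of -0.00232 (-0.126 to 0.121). From 3' ends they were 0.754, 0.672 and 0.723 in egg and 0.525, 0.292 and 0 at 32-cell. The lower score at 32-cell was thus carried by fragments that ended at the site, not by fragments that began there. Within the shared barcodes the deposited difference was -0.416 and -0.542. Limma called this site with the barcode as a block (difference -0.479, adjusted p = 0.0283) and without 32-cell library 1 (adjusted p = 0.0444), while over all alternatives its adjusted p ranged from 0.0223 to 0.999. Egg library 3 and 32-cell library 1 share a barcode with no other library, so the block compared only the pairs that share one. Both calls thus leave out 32-cell library 1, which had the highest 32-cell score, and are not separate from each other.

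The other 5 overlapped between the groups. 28S-Um4272, at position 3570, had deposited scores of 0.707, 0.926 and 0.916 in egg and 0.528, 0.426 and 0.855 at 32-cell, a difference of -0.247 (-0.511 to 0.0165, limma adjusted p = 0.603). From 5' ends each of its 6 libraries lay between 0.967 and 0.995. 28S-Gm3923, which lies 7 positions after 28S-Cm3916, had scores of 0.854, 0.637 and 0.822 in egg and 0.720, 0.489 and 0.397 at 32-cell, a difference of -0.236 (limma adjusted p = 0.603). From 5' ends its difference was 0.0158, in the other direction. At both sites the libraries with low deposited scores were low in 3' ends.

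At the remaining 3, some libraries stood low while others did not. 18S-Cm462, at position 508, had scores of 0.884, 0.851 and 0.947 in egg and 0.872, 0.506 and 0.678 at 32-cell, a difference of -0.209, and of -0.0275 from 5' ends. Its 5' coverage was the thinnest of all sites, with a flanking mean of 12.3 read ends in 32-cell library 2, the library with the 5' score of 0.913. 18S-Am1678, at position 1743, had scores of 0.940, 0.929 and 0.904 in egg and 0.901, 0.591 and 0.920 at 32-cell, so only 32-cell library 2 was low. The difference was -0.121, and -0.0141 without that library, and from 5' ends it was 0.000779. Its 5' coverage at 32-cell was thin too, with flanking means of 56.9, 33.75 and 42.9 read ends. 28S-Um3904, at position 3185, had scores of 0.581, 0.933 and 0.980 in egg and 0.859, 0.404 and 0.919 at 32-cell, a difference of -0.104, of 0.0576 without 32-cell library 2, and of -0.00452 from 5' ends. Its 2 low libraries, egg 1 and 32-cell 2, share a barcode and had scores of 0.0860 and 0.121 from 3' ends. The authors' overview corrects such values for a barcode effect, and in scores rebuilt to match it the means were 0.942 and 0.926 at 18S-Cm462, 0.924 and 0.940 at 18S-Am1678 and 0.964 and 0.919 at 28S-Um3904. In these stages each corrected value was the library's own score from 5' ends, so the corrected means are not a separate check on the 5' scores. With those corrections 7 sites differed by at least 0.1, 4 higher and 3 lower.

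**Figure D5:**
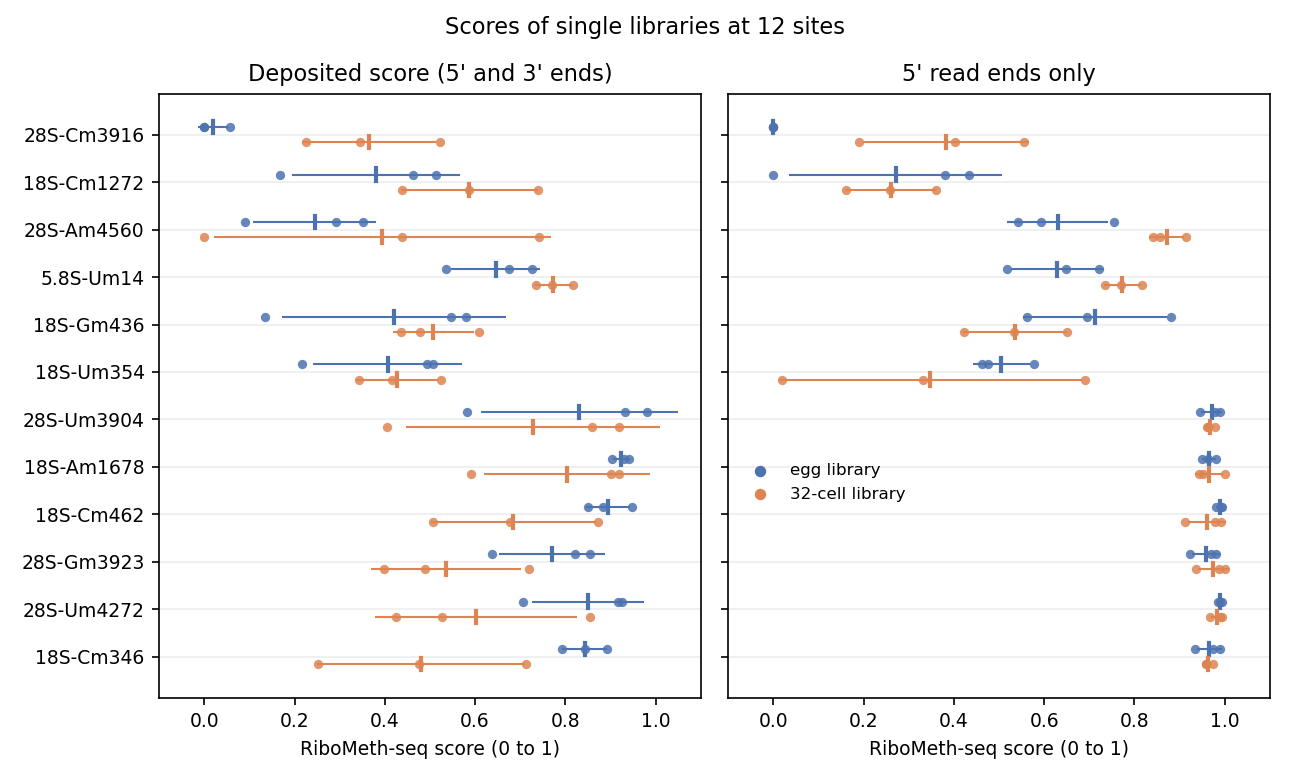
Scores of the single libraries (points) at the 12 sites that differed by at least 0.1 in either score, with stage mean (tick) and SD (line, n = 3 libraries a stage), in the deposited score and from 5' ends only, each on a scale of 0 to 1. In the right panel the lower 6 sites lie above 0.9 in all libraries of both stages, and 28S-Cm3916 and 28S-Am4560 are separated between stages.

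In 18S rRNA, 3 sites had a partial stage mean, from 0.25 to below 0.75, in both groups and both scores. 18S-Cm346 and 18S-Cm462 were partial at 32-cell only, in the deposited score. 18S-Cm1272, at position 1339, had deposited scores of 0.462, 0.514 and 0.168 in egg and 0.437, 0.587 and 0.739 at 32-cell, a difference of 0.207 (-0.0439 to 0.457, limma adjusted p = 0.603). From 5' ends its difference was -0.0109 (-0.285 to 0.263), so the higher mean came from 3' ends. 18S-Um354, 8 positions after 18S-Cm346, had scores of 0.508, 0.495 and 0.216 in egg and 0.524, 0.342 and 0.417 at 32-cell, a difference of 0.0213. From 5' ends it had 0.578, 0.462 and 0.475 in egg and 0.691, 0.0199 and 0.331 at 32-cell, where the wide 32-cell values enclosed those of egg. 18S-Gm436, at position 482, had 0.546, 0.135 and 0.581 in egg and 0.608, 0.436 and 0.479 at 32-cell, a difference of 0.0868. From 5' ends it had 0.695, 0.563 and 0.881 in egg and 0.652, 0.423 and 0.532 at 32-cell, a difference of -0.177 (-0.370 to 0.0153, limma adjusted p = 0.731). For these 3 sites the groups overlapped in both scores, and the sign of the difference was not the same in the 2 scores.

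Taking a stage mean of at least 0.75 as full and one under 0.25 as weak, the egg had 92 full, 4 partial and 2 weak sites, and the 32-cell stage 87, 11 and 0. The change in these counts came from 6 sites that were full in egg and partial at 32-cell, 1 that was partial and then full, and 2 that were weak and then partial. From 5' ends the classes were 92, 5 and 1 in egg and 94, 4 and 0 at 32-cell, with 0 sites going from full to partial. The larger number of partial sites at the 32-cell stage was thus found in the deposited score and not from 5' ends. Of the 98 sites, 80 were at least 0.75 in each of the 6 libraries, and 89 were so from 5' ends.

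Differences smaller than 0.1 made up the rest of the sites at an unadjusted p under 0.05. 18S-Um286, at position 333, had scores of 0.989, 0.958 and 0.973 in egg and 0.928, 0.919 and 0.926 at 32-cell, a difference of -0.0490 (-0.0854 to -0.0126, limma adjusted p = 0.432) with no overlap. From 5' ends the difference was -0.0554 (limma adjusted p = 0.401). 28S-Gm4340, at position 3638, had 0.948, 0.939 and 0.971 in egg and 0.871, 0.905 and 0.931 at 32-cell, a difference of -0.0504 (-0.0975 to -0.00322, limma adjusted p = 0.603), also with no overlap. From 5' ends it had 0.939, 0.945 and 0.982 in egg and 0.842, 0.838 and 0.9002 at 32-cell, a difference of -0.0950 (limma adjusted p = 0.296). 28S-Gm2817, at position 2265, had 0.781, 0.808 and 0.742 in egg and 0.663, 0.760 and 0.661 at 32-cell, a difference of -0.0823 (limma adjusted p = 0.603), and of -0.0368 from 5' ends, and its groups overlapped in both scores. At 18S-Um286 and 28S-Gm4340 the differences from 3' ends had the other sign, 0.0598 and 0.0139, so both kinds of ends did not move together there. At 18S-Um286 most read ends were 5' ends, so its 3' score rests on few ends. The flanking means at 32-cell were 1493, 1615 and 1191 in 5' ends, out of 1549, 1712.5 and 1313 in both kinds.

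The A-loop of 28S rRNA, which takes part in holding the end of the tRNA in the A site, carries the adjacent sites 28S-Um4468 and 28S-Gm4469 at positions 3766 and 3767. 28S-Um4468 had scores of 0.981, 0.987 and 0.967 in egg and 0.970, 0.943 and 0.965 at 32-cell, a difference of -0.0188 (-0.0422 to 0.00471). 28S-Gm4469 had 0.858, 0.8999 and 0.954 in egg and 0.943, 0.833 and 0.882 at 32-cell, a difference of -0.0182 (-0.107 to 0.0710). From 5' ends the differences were -0.0471 and -0.00166. Both sites were near full in both groups and their deposited scores overlapped, with limma adjusted p values of 0.603 and 0.889.

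The remaining 79 sites had no stage mean below 0.801 in egg or 0.783 at 32-cell, and their differences ranged from -0.0816 to 0.0781. Single libraries went lower in the deposited score, down to 0.553. From 5' ends the differences at these sites ranged from -0.0856 to 0.0669, and no library had a score below 0.748. Over all 98 sites, the 3 libraries of 32-cell lay wholly above those of egg at 6 sites (6.12%) and wholly below at 8 (8.16%). From 5' ends the counts were 9 (9.18%) and 10 (10.2%). In both scores the groups were apart in the same direction at 2 of 98 sites above, 28S-Cm3916 and 5.8S-Um14, the latter measured almost wholly by 5' ends in both. They were so at 6 of 98 below: 18S-Um286, 18S-Um287, 18S-Um799, 28S-Am2802, 28S-Gm4340 and 28S-Gm4593. How often unlisted positions were apart in both scores was not counted, so these counts have no background. The differences at the 6 sites below lay between -0.0791, at 28S-Gm4593, and -0.0172, at 18S-Um287.

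Positions the authors do not list gave the background of the same score. Over 6234 such positions, the median stage mean was 0.117 in egg and 0.132 at 32-cell, and the 95th percentile was 0.5002 and 0.583. At 44.8% of them the means were 0.1 or more apart, and from 5' ends at 53.4%. In the deposited score the libraries of 32-cell lay wholly above those of egg at 10.9% and wholly below at 7.52%. Differences of 0.1 or more were thus more frequent at unlisted positions than at the listed sites (10.2%). The listed sites had median stage means of 0.943 in egg and 0.939 at 32-cell. The levels compared are thus unlike, and unlisted positions are not a matched background for sites near full. In the deposited score the shares of separated listed sites were near or below this background. The separated share of unlisted positions was not counted from 5' ends. Of the unlisted positions, 225 had a difference at least as large as that of 28S-Cm3916 in the deposited score, and 90 had one at least as large in both scores. The 32-cell mean of 28S-Cm3916 in the deposited score lay between the median and the 95th percentile of the unlisted positions at 32-cell. In all 6 libraries together, 0 unlisted positions reached 0.75.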

How the data were processed

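RNA was broken with alkali, size-selected, joined to linkers with a modified tRNA ligase and sequenced on an Ion Proton, per the labels' protocols. The submitters' processing notes name cutadapt 2.0 and Bowtie2 2.3.4.1. Settings are not given in the sources used here. The deposited stage sheets hold the count of 5' ends, of 3' ends and of their sum at each rRNA position, without normalization, and the authors' fraction (0 to 1) of each library. The authors' overview gives a score as mean and standard deviation per stage, and per the file headers it holds corrections for barcode effects. The 2 further value columns of each library were not used.

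The deposited fraction was rebuilt from the counts, with weights of 1 next to the site declining to 0.5 at the far end of a flank, to within 5.00e-13. The same arithmetic gave scores from 5' or 3' ends alone. Which values the authors corrected was inferred by matching their means, with 12 library values at 8 sites in these stages. Each was matched by putting the library's score from 5' ends in place of the deposited one. Counts of 10 or more in the flanking mean were required, and 98 sites passed.

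Scores were fitted untransformed with limma 3.58.1 (R 4.3.3) over all 14 libraries, so that 5 stages share one estimate of the spread (scores from 5' or 3' ends over 4 stages, without adult tail), with Benjamini-Hochberg adjustment over the 98 sites and two-sided tests at 0.05. The fit was tested on simulated data. Tables and figures used Python 3.11.15, numpy 2.4.6, pandas 2.3.3 and matplotlib 3.10.9. The sites named are those with an unadjusted p under 0.05, a difference of at least 0.1 in the deposited score or from 5' ends, or a partial or weak stage mean, with the 3 sites of 5.8S rRNA and the A-loop pair. The members and lists were chosen with earlier results of these data known. Replicate numbers did not pair the libraries. The 4 small RNA samples were not analysed here.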

Additional observations from a re-analysis of the deposited data

How the results depend on the processing

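Among 33 alternatives (23 chosen with the main design, 10 after seeing the data), 27 called 0 sites, among them the replicate number as a block and the quasi-binomial model, which had 9 at an unadjusted p under 0.05. The other 6 called 1 each. These were 28S-Cm3916 on the logit scale (scores of 0 set to 0.01, on which these 2 calls rest), on that scale from 5' ends and without 12-somite library 3, and 18S-Cm346 with a barcode block on deposited or corrected scores and without 32-cell library 1. No score of 18S-Cm346 was corrected, so the 2 block fits used the same values there. In every fit with a barcode block, the difference rests only on libraries that share a barcode. Egg library 3 and 32-cell library 1 do not enter it. Leaving out 1 library called 0 to 1 sites. A coverage minimum of 50, or none, kept the same 98 sites, so these settings repeated the main fit and add nothing to it. Only 32 of the 33 gave a difference at single sites, so the count of 27 includes an alternative that could call none. With the replicate block the difference at 28S-Cm3916 was 0.3452 (limma adjusted p = 0.493). Same-numbered libraries correlated at -0.218, -0.245 and -0.00416, so the numbers were not taken as pairs.
Class limits of 0.8 and 0.2 gave 8 partial and 1 weak site in egg. From 5' ends there were 1 weak site in egg, 4 partial at 32-cell, and 5 sites past 0.1, 2 of them lower. Barcode correction, which puts in scores from 5' ends, left 3 lower. Leaving out single libraries gave 4 to 7 partial and 1 to 2 weak sites in egg (extremes without egg 1, and 7 without egg 3) and 0 to 1 weak at 32-cell (1 without 32-cell 1).
Differences changed sign as follows. The causes were not tested, beyond what each setting's name says. From 5' ends, alone or with the 2 stages fitted alone, they were -0.158 at 18S-Um354, -0.177 at 18S-Gm436, -0.0109 at 18S-Cm1272, 0.000779 at 18S-Am1678, 0.0158 at 28S-Gm3923 and 0.00172 at 5.8S-Gm75. With the barcode as a block these were -0.344, -0.151, -0.0971, 0.0198, 0.0206 and 0.00171, with 0.0123 at 18S-Cm346 and 0.00736 at 28S-Um3904. On the log2 odds scale from 5' ends they were -1.86 at 18S-Um354, -1.27 at 18S-Gm436, 0.13 at 18S-Am1678 and 0.81 at 28S-Gm3923. From 3' ends they were 0.0598 at 18S-Um286, 0.0139 at 28S-Gm4340 and 0.00305 at 28S-Um4468. The quasi-binomial model gave -0.0869 at 18S-Um354. The barcode block gave -0.122 at 18S-Um354 and -0.00119 at 28S-Am4560, also on corrected scores. Corrected scores gave -0.0650 at 18S-Um354, -0.0557 at 18S-Gm436 and 0.0158 at 18S-Am1678, and under the block -0.0969 at 18S-Gm436, 0.0252 at 18S-Am1678 and 0.0137 at 18S-Cm462. Without single libraries, in either score, the ranges were -0.480 to 0.00952 at 18S-Cm346, -0.330 to 0.0721 at 18S-Um354, -0.252 to 0.167 at 18S-Gm436, -0.147 to 0.282 at 18S-Cm1272, -0.179 to 0.0116 at 18S-Am1678, -0.115 to 0.0142 at 28S-Gm2817, -0.229 to 0.0576 at 28S-Um3904, -0.328 to 0.0351 at 28S-Gm3923, -0.373 to 0.00209 at 28S-Um4272, -0.0466 to 0.00794 at 28S-Gm4469, -0.0252 to 0.346 at 28S-Am4560 and -0.0433 to 0.0326 at 5.8S-Gm75.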
